A study of Mus musculus with 2 samples.

Results

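EP300 binding was described at 10 genes of TGF-beta signalling: the ligand genes Tgfb1, Tgfb2 and Tgfb3, the latent ligand binding gene Ltbp1, the receptor genes Tgfbr1, Tgfbr2 and Tgfbr3, the effector gene Smad3, and the inhibitor genes Smad7 and Skil. EP300 itself is an acetyltransferase and coactivator that DNA-bound transcription factors bring to enhancers and promoters, and its positions were mapped by chromatin immunoprecipitation with sequencing (ChIP-seq). The material was whole lung of B6NCrl mice at postnatal day 0. There were 2 libraries in 1 group, with no treatment or altered genotype named. In the labels they are replicates 1 and 2 from a shared donor and a shared biosample record, and the differences between them may thus reflect technique rather than animals. Sex was not collected, and a possible control experiment named there was not analysed here. The authors' optimal set of reproducible peaks held 43988 peaks, of which 43972 lay on the 21 chromosomes. A peak was given to a gene if the gene had the nearest protein-coding transcription start site (TSS) within 100 kb of the peak's summit, or if the summit lay in the gene's body. By this rule 132 of the 43972 peaks belonged to the 10 genes, which stand among 21851 protein-coding genes, and no peak belonged to more than 1 of the 10. Assignment by position is not a measured link between a peak and a gene.

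TGF-beta ligands are secreted in a latent complex with their propeptide and a latent binding protein and must be released before they bind receptors. The type II receptor then phosphorylates the type I receptor, which phosphorylates SMAD2 and SMAD3, and these enter the nucleus with SMAD4 and bind DNA beside other factors. Signalling induces its own inhibitors, which act on the receptor or on the nuclear SMAD complex. In the lung the pathway is known for its part in branching, in the formation of alveoli and in the deposition of matrix.

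The DNA at the strongest peaks is shown for 4 of the 5 genes with the highest signal values; Smad7 is left out. Each run is the central 100 bp around the summit, on the plus strand of mm10 (GRCm38), with capitals for matches to the consensus sequences searched. The Tgfbr3 centre is chr5:107121253-107121352, the Tgfbr2 centre chr9:116234343-116234442, the Smad3 centre chr9:63716324-63716423 and the Ltbp1 centre chr17:75307182-75307281.
Tgfbr3 peak 1: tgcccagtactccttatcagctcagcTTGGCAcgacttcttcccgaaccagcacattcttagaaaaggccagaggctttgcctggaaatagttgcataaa
Tgfbr2 peak 1: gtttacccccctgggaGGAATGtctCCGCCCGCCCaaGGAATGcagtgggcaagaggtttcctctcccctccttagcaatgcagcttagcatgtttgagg
Smad3 peak 1: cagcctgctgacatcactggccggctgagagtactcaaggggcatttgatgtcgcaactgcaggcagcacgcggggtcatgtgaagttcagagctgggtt
Ltbp1 peak 1: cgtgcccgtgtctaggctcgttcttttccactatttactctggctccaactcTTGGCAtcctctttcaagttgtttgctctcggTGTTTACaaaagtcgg
The Tgfbr2 centre held 2 copies of the TEAD sequence GGAATG on either side of 2 overlapping KLF/SP sequences (GGGCGG, here on the opposite strand). The Ltbp1 centre held an NFI sequence (TTGGCA) and a FOX sequence (TGTTTAC), the Tgfbr3 centre an NFI sequence, and the Smad3 centre none of the 14 sequences searched. A match of letters is a description and not a measured binding site.

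RefSeq promoter windows (GRCm38.p6), from 250 bases before a start to 50 after it, were matched by symbol for 6 of the 10 genes and numbered 8. Peaks of the optimal set overlapped 2 of the 8 windows, and the 250 bases before these starts are shown on the plus strand, which is the strand of both genes. They are the Tgfb1 promoter, chr7:25686752-25687001, and the promoter of the shorter Ltbp1 form, chr17:75178531-75178780.
Tgfb1 promoter: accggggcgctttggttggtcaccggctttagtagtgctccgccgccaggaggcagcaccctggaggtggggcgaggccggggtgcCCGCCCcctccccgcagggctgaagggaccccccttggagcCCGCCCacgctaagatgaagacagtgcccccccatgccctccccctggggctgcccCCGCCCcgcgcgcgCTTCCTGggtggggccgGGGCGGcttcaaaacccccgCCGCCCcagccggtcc
Ltbp1 shorter form promoter: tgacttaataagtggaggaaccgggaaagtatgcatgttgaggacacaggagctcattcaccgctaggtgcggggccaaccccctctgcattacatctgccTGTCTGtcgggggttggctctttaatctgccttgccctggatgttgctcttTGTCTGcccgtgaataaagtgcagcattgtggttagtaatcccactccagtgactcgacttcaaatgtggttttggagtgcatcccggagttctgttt
In the 250 bases before the Tgfb1 start there were 5 matches to the KLF/SP sequence and 1 to the ETS sequence (CAGGAAG). In those before the Ltbp1 start there were 2 matches to the SMAD box (CAGACA), both on the opposite strand. Of 32851 RefSeq promoter windows of this kind, which are 300 bases long, 35.7% held the KLF/SP sequence, 13.3% the ETS sequence and 21.0% the SMAD box on either strand.

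EP300 peaks were assigned to 9 of the 10 genes, where 50.1% of all protein-coding genes had at least 1 peak. Tgfbr1 was the gene with none. The 10 genes had a median of 13 peaks, against a median of 1 and a mean of 1.97 ± 4.11 (SD over 21851 genes) for all protein-coding genes. Because long genes and genes with distant neighbours can collect more peaks, the count was also taken per 100 kb of the sequence from which a gene could receive peaks. This gave 7.63 peaks per 100 kb over the 10 genes together, against 2.17 over all genes. In each library's own strongest 43988 peaks, 131 peaks in replicate 1 and 132 in replicate 2 were assigned to the 10 genes. No test of these counts was made, since the genes were chosen with earlier results of these data known.

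**Figure D1:**
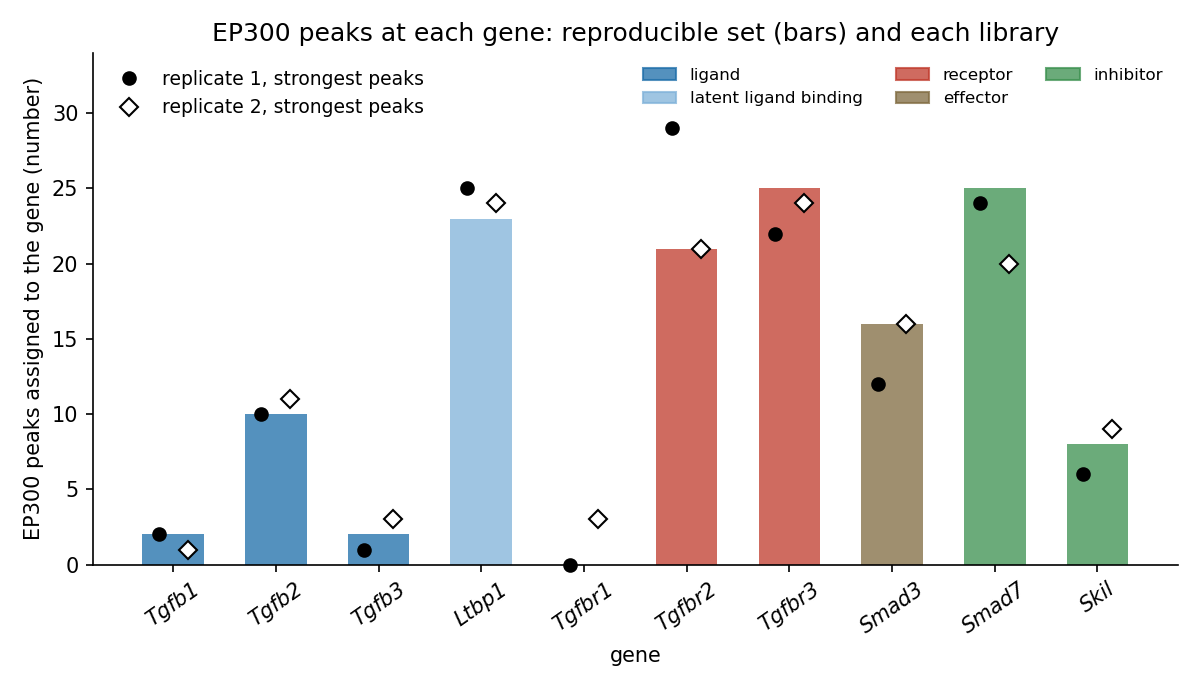
Number of EP300 peaks assigned to each gene (vertical axis), with genes coloured by role; bars show the optimal set and the 2 symbols show the strongest 43988 peaks of each library. Tgfbr3 and Smad7 had the highest bars, at 25, while Tgfbr1 had 0 and the library counts differed most at Tgfbr2, with 29 in replicate 1 and 21 in replicate 2.

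The genes differed widely among themselves. Tgfbr3 and Smad7 had 25 peaks each, a number reached by 0.435% of all protein-coding genes. Ltbp1 had 23, reached by 0.577%, Tgfbr2 had 21, reached by 0.751%, and Smad3 had 16, reached by 1.59%. Tgfb2 had 10 peaks and Skil had 8, numbers reached by 4.44% and 6.47% of genes. Tgfb1 and Tgfb3 had 2 peaks each, a number reached or passed by 33.0% of genes. Neighbours in this order often changed places between the libraries: replicate 1 had more peaks at Tgfbr2 (29) than at Ltbp1 (25), Smad7 (24) or Tgfbr3 (22), while replicate 2 had as many at Ltbp1 as at Tgfbr3 (24) and fewer at Tgfbr2 (21) and Smad7 (20).

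**Figure D2:**
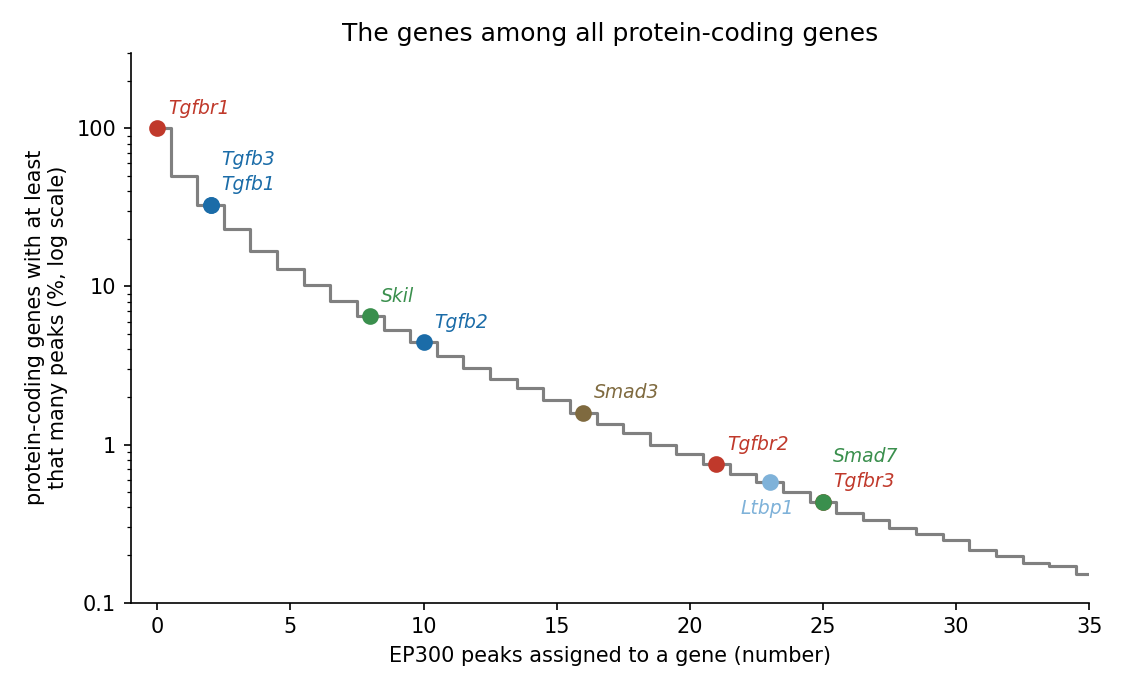
Percent of all protein-coding genes (log vertical axis) that had at least the number of EP300 peaks on the horizontal axis, with the 10 genes marked and coloured by role. Tgfbr3, Smad7, Ltbp1 and Tgfbr2 lie where fewer than 1% of genes lie, whereas Tgfb1 and Tgfb3 share their count of 2 with many genes. Gene length and distance to neighbours are not taken into account in these counts.

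By role, the 3 ligand genes had 14 peaks, the 3 receptor genes 46 and the 2 inhibitor genes 33, beside 23 at Ltbp1 and 16 at Smad3. The ligand genes had 13 peaks in replicate 1 and 15 in replicate 2, the receptor genes 51 and 48, and the inhibitor genes 30 and 29, so the gaps between roles were larger than the spread between the libraries. Per 100 kb, the inhibitor genes had 11.8 peaks, the receptor genes 9.10 and the ligand genes 5.72. By gene, the density was 12.3 for Smad7 and 10.3 for Skil among inhibitors, 12.3 for Tgfbr3, 10.5 for Tgfbr2 and 0 for Tgfbr1 among receptors, and 9.53 for Tgfb1, 8.20 for Tgfb2 and 1.97 for Tgfb3 among ligands. In the optimal set, the range of the receptor genes overlapped that of the ligand genes through Tgfbr1 alone. It also overlapped that of the inhibitor genes, with or without Tgfbr1. The ranges of ligand and inhibitor genes did not overlap in this set, but came close at Tgfb1 (2 peaks) and Skil (8 peaks). Skil had 6 peaks in replicate 1 and 7 regions once overlapping peaks were merged, and Tgfbr2 had 18 such regions. Skil could receive peaks from 78.0 kb, Tgfbr2 from 200 kb and Tgfb1 from 21.0 kb. Tgfb1 kept its 2 peaks in replicate 1 and after merging. Per 100 kb, Skil then lay below Tgfb1 in both cases, and Tgfbr2 lay below Tgfb1 after merging. The ranges of ligand and inhibitor genes thus overlapped in both cases. After merging, the receptor and ligand ranges also overlapped at Tgfbr2. With 2 or 3 genes in a role, no difference between roles can be told from a difference between genes.

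Signal strength was also described by role. The signal value is the authors' own measure of a peak's height and was used only to rank and describe peaks. The 132 peaks had a median signal of 49.0, close to the 48.5 of all optimal peaks, and 12 of them (9.09%) were in the strongest 10% of the set, above a signal of 119.9. Receptor gene peaks had the highest median, 56.8 (quartiles 37.0 and 93.4), with 6 of 46 in the strongest 10%. Ltbp1 peaks had 56.4, with 1 of 23, and Smad3 peaks 50.3, with 2 of 16. Inhibitor gene peaks had 43.4 (quartiles 30.2 and 66.0), with 3 of 33. Ligand gene peaks had 47.4, with 0 of 14 in the strongest 10%. The strongest ligand gene peak had a signal of 89.1, and the strongest receptor gene peak 254. By gene, the highest median was 62.8 at the ligand gene Tgfb3, with 2 peaks, above 58.9 at Tgfbr2 and 54.1 at Tgfbr3. As with the counts, a difference between roles cannot be told from a difference between genes. In whole lung, fewer cells with a site and a weaker site in each cell cannot be told apart.

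The peaks lay mostly within introns and far from the start sites counted here, which leave out those of incomplete transcript models. Introns held 88 of the 132 peaks (66.7%, against 44.2% of all optimal peaks), intergenic sequence 32 (24.2%, against 41.4%), untranslated regions 3 and coding sequence 1. The rule gives a gene every peak in its body, which raises the intronic share for long genes. The median distance from summit to the nearest protein-coding TSS was 55.8 kb, against 25.3 kb for all peaks, and 27 of the 132 (20.5%) were within 10 kb, against 31.7%. Promoter peaks, whose summits were at most 1 kb from such a TSS, numbered 8 (6.06%, against 12.3%). They were found at 4 of the 10 genes (Tgfb1, Ltbp1, Smad7 and Skil), where 20.5% of all protein-coding genes had one. The inhibitor genes had 6 of the 8, and the receptor genes and Smad3 had none. In replicates 1 and 2, Smad7 had 3 and 2 promoter peaks, Skil 1 and 2, and Tgfbr2 1 and 0. The genes also differed in counted starts, with 3 at Smad7, 4 at Skil and at Tgfbr1, 2 at Tgfbr2, and 1 at Tgfbr3 and at Smad3.

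**Figure D3:**
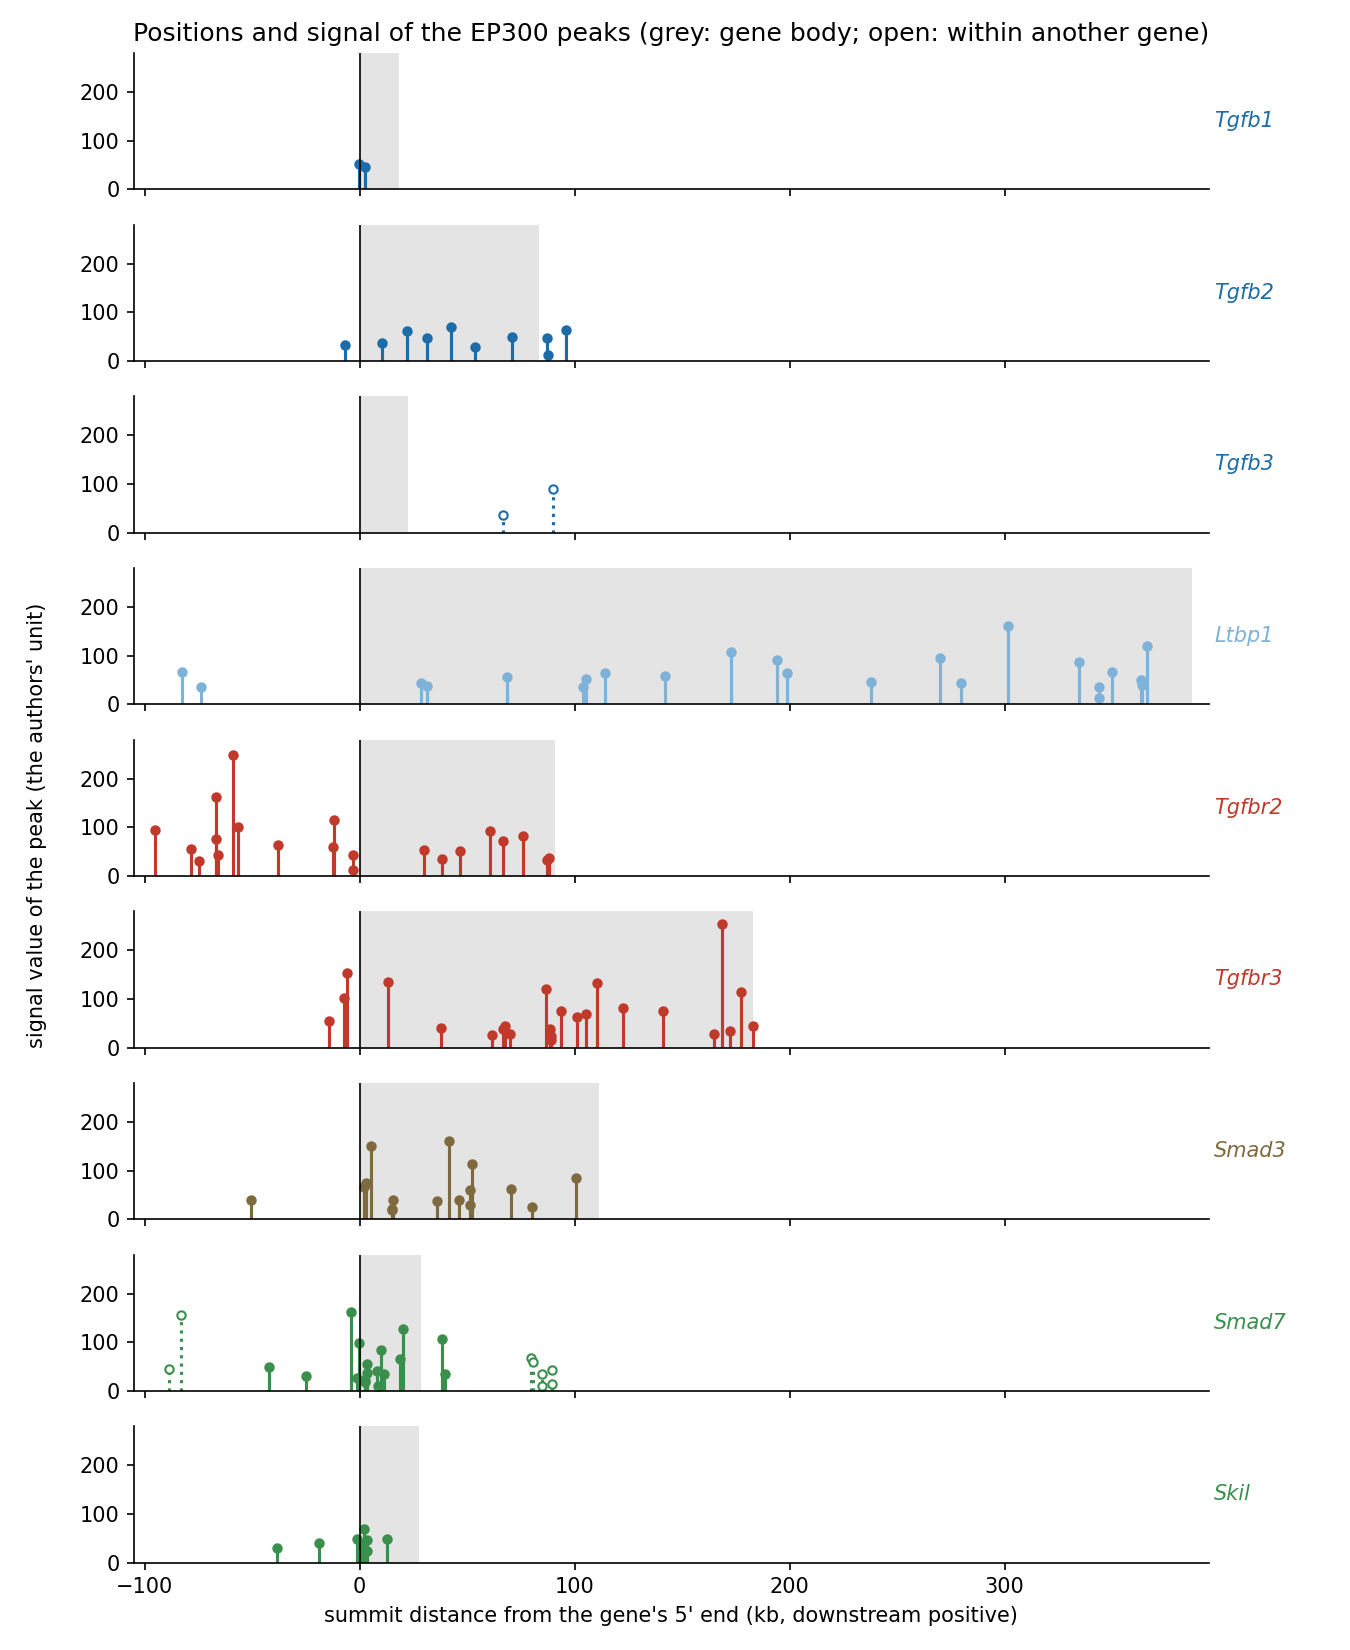
Position of each peak summit relative to the 5′ end of its gene in kb (horizontal axis, downstream positive) and its signal (vertical axis, the authors' unit), for the 9 genes with peaks. Grey marks the gene body and open symbols peaks within another gene; the strongest peaks of Tgfbr2 lie upstream of the gene, those of Tgfbr3, Ltbp1 and Smad3 mostly within it, and those of Skil around its start.

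Among the ligand genes, Tgfb2 carried most of the peaks. Tgfb2 (chr1:186622792-186705989, minus strand) had 10, with 10 in replicate 1 and 11 in replicate 2. Of these, 5 lay in intron 1 and 1 in intron 2, 3 lay downstream of the gene and 1 lay 7.01 kb upstream. Its strongest peak, in intron 1 and 42.1 kb from the nearest start, had a signal of 70.2, with 47.8 in replicate 1 and 22.0 in replicate 2. No Tgfb2 peak was a promoter peak. Every Tgfb2 peak found in both libraries (8 of 10) had the higher signal in replicate 1, with a median log2 ratio of 0.28. That is below the median of 0.40 over all optimal peaks found in both.

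Tgfb1 (chr7:25687002-25705077, plus strand), which encodes the ligand most often studied in fibrosis and immune regulation, had 2 peaks near its start. The promoter peak, 0.22 kb upstream and over the promoter sequence shown above, had a signal of 51.7, with 33.7 in replicate 1 and 20.8 in replicate 2. The other, 2.26 kb downstream in intron 1, had 46.4, with 31.2 and 13.1. Only the promoter peak was among the strongest 43988 in both libraries, and replicate 2 thus had 1 Tgfb1 peak there. The Tgfb1 gene could receive peaks from only 21.0 kb of sequence, which makes its 2 peaks a density close to that of Tgfb2.

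Tgfb3 (chr12:86056745-86079041, minus strand), the ligand gene required for palate fusion, had no peak in its body and none near its start. Its 2 peaks lay 66.6 and 89.8 kb downstream of its start, both in introns of the neighbouring gene Ttll5, so that they may belong to either gene. The farther peak had a signal of 89.1, the highest of the 14 ligand gene peaks. It had 32.7 in replicate 1 and 58.5 in replicate 2, against the usual direction of higher values in replicate 1. The nearer had 36.5, with 16.7 and 18.6. The count was 1 in replicate 1 and 3 in replicate 2.

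Ltbp1 encodes a protein that binds latent TGF-beta and tethers it to the matrix. The gene (chr17:75005568-75392512, plus strand, 387 kb) had 23 peaks, with 25 in replicate 1 and 24 in replicate 2, and 21 of them lay in its body. Per 100 kb this was 4.72, lower than at each other gene with peaks except Tgfb3. Its strongest peak, shown above, lay in intron 19, 302 kb from the 5′ end, with a signal of 161, and with 101 in replicate 1 and 58.4 in replicate 2. The next, in intron 31, had 119, with 68.8 and 53.1. The third in strength was the gene's promoter peak. It lay 0.352 kb upstream of the start of the shorter form, inside the body of the longer one, with a signal of 108, and with 57.7 and 46.4 in the libraries. The start of the longer form had no promoter peak in the optimal set. Of the 23 peaks, 7 near the 3′ end were closer to the start of the next gene, Rasgrp3, and the nearest of them lay 64.0 kb from it.

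The receptor genes differed most from each other. Tgfbr1 (chr4:47353222-47414931, plus strand), which encodes the type I receptor kinase, had 0 peaks in the optimal set and in the conservative set. The nearest optimal peak lay 25.2 kb from its body, had a signal of 43.9 and belonged to Col15a1. The list called on both libraries pooled, which held 300000 peaks of every strength, had 25 at Tgfbr1. The best of these had a signal of 27.3 and rank 48087, just beyond as many ranks as the optimal set holds. In replicate 1 the best Tgfbr1 peak had rank 70179 and none was among the strongest 43988, while in replicate 2 the best had rank 30575 and 3 were among them. The libraries therefore differed at Tgfbr1, and its count of 0 is a statement about reproducible peaks under this rule. With each gene's 5′ end used in place of the starts of all its transcripts, 4 optimal peaks fell to Tgfbr1.

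Tgfbr2 (chr9:116084293-116175360, minus strand) encodes the type II receptor, which binds the ligand first. It had 21 peaks, with 29 in replicate 1 and 21 in replicate 2 (mean 25 ± 5.66, SD, n = 2). In contrast to Tgfbr3 and Smad3, more of them lay upstream (13) than in the body (8), and 8 lay more than 50 kb upstream. The strongest, shown above, lay 59.0 kb upstream of the start in intergenic sequence. Its signal was 247, which is rank 523 of 43988, with 136 and rank 567 in replicate 1 and 109 and rank 561 in replicate 2. Near it, 66.8 kb upstream, was a peak of signal 162, with 73.9 and 89.0 in the libraries, and 56.7 kb upstream was one of 99.7, with 45.7 and 55.2. The peak closest to the gene among its strongest 3 lay 12.02 kb upstream, with a signal of 115. Its values were 59.2 in replicate 1 and 59.6 in replicate 2. The 2 peaks nearest the start lay 3.01 and 3.23 kb upstream, with signals of 43.8 and 12.7, and no Tgfbr2 peak of the optimal set was a promoter peak. Replicate 1 alone had 1 promoter peak there. The Tgfbr2 count depended on the rule: it was 13 with a limit of 50 kb and 10 with start sites of every biotype. The limit of 50 kb left out the 8 peaks more than 50 kb upstream, among them those of signal 247, 162 and 99.7. Start sites of every biotype left out most of the 13 upstream peaks.

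Tgfbr3 (chr5:107106570-107289629, minus strand) encodes betaglycan, a co-receptor that presents ligand, TGF-beta2 above all, to the type II receptor. It had 25 peaks, with 22 in replicate 1 and 24 in replicate 2, of which 22 lay in the gene body and 9 in intron 3. Its strongest, shown above, was the strongest of all 132 peaks. It lay in intron 15, 168 kb downstream of the start, and had a signal of 254 (rank 474), with 146 and rank 422 in replicate 1 and 104 and rank 658 in replicate 2. This summit was closer to the start of the neighbouring gene Cdc7, 157 kb away, and 4 further Tgfbr3 peaks near the 3′ end were also nearest to Cdc7. The next 3 in strength were within or just before the gene. One lay 5.77 kb upstream with a signal of 153, with 83.4 and 67.6 in the libraries, and held an AP-1 sequence. The others, 13.2 kb into intron 1 and 110 kb into the gene in intron 3, had signals of 134.1 and 133.5. Tgfbr3 had 4 peaks in the strongest 10% of the set, the most of the 10 genes.

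Smad3 (chr9:63646767-63757994, minus strand), the gene of the receptor-activated effector that binds DNA, had 16 peaks, with 12 in replicate 1 and 16 in replicate 2. All but 1 lay in the gene body, and 14 of them in intron 1. The strongest, shown above and 41.6 kb from the start, had a signal of 162, with 110 in replicate 1 and 50.8 in replicate 2. The next, 5.22 kb from the start, had 149, with 76.2 and 70.4. The closest to the start lay 2.11 kb into intron 1, with a signal of 65.9. A Smad3 peak of signal 39.7 lay 257 bp from the start of an incomplete transcript model, which was not counted as a start site here. With such models counted, the 2 strongest Smad3 peaks lay 4405 and 1694 bp from a start of the gene. The strongest peak of Ltbp1 then lay 2924 bp from one and that of Tgfbr3 11620 bp, while that of Tgfbr2 stayed at 59.0 kb. Of the 16 peaks, 2 near the 3′ end were nearer to the start of Aagab.

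The inhibitor genes had peaks close to their starts. SMAD7 occupies the activated type I receptor and recruits ubiquitin ligases to it. Smad7 (chr18:75367529-75395935, plus strand) had 25 peaks, with 24 in replicate 1 and 20 in replicate 2, and 8 of them lay in a single stretch of 10 kb. Some of these 8 overlapped each other, and the 25 peaks made 20 regions once overlapping peaks were merged. Its strongest lay 4.10 kb upstream, with a signal of 162, and with 92.8 in replicate 1 and 68.5 in replicate 2. Its 4 promoter peaks had signals of 98.8, 55.6, 22.7 and 17.9. The strongest promoter peak, 0.396 kb upstream, had 58.2 in replicate 1 and 42.3 in replicate 2, whereas the weakest 2 overlapped each other and had no partner in replicate 2. In the gene body, intron 3 held the strongest peak, with a signal of 128, and with 78.2 and 56.1 in the libraries. Of the 25 peaks, 8 lay in the bodies of neighbouring genes, 6 in Ctif and 2 in Dym. A Dym peak 82.9 kb upstream had the next highest signal after the strongest, 155, with 86.8 and 65.8 in the libraries.

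Skil (chr3:31095058-31122577, plus strand) encodes SnoN, a nuclear corepressor of SMAD complexes that is degraded on signalling and then induced again. It had 8 peaks, with 6 in replicate 1 and 9 in replicate 2, and 5 of these lay within 10 kb of one of its starts. Its strongest was a promoter peak 0.403 kb downstream of a start, with a signal of 69.2, and with 32.9 in replicate 1 and 30.9 in replicate 2. The centre of that peak held AP-1, TEAD and FOX sequences. Its letters are not printed, since all 100 bases lie in an untranslated region. The other promoter peak had a signal of 38.6 and no partner in replicate 2, and its centre had a GC content of 74%. That centre alone among the 132 held the SMAD GC box (GGCGCC), a share of 0.758% against 1.29% of all optimal peaks.

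Most of the peaks were found in both libraries. A summit within 100 bp in each library's full list existed for 115 of the 132 peaks (87.1%, against 85.9% of all optimal peaks). Among the strongest 43988 of each library this held for 88 (66.7%, against 63.0%). By role, the shares in both full lists were 12 of 14 for ligand genes, 22 of 23 for Ltbp1, 42 of 46 for receptor genes, 13 of 16 for Smad3 and 26 of 33 for inhibitor genes. The median log2 ratio of replicate 1 to replicate 2 signal was 0.31 over the 115 peaks, beside 0.40 over all peaks found in both. It ranged from -0.50 at Tgfb3, with 2 peaks, to 0.97 at Tgfb1, also with 2. With no read counts in the files, the depth behind each library was unknown and these ratios carry no scaling.

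**Figure D4:**
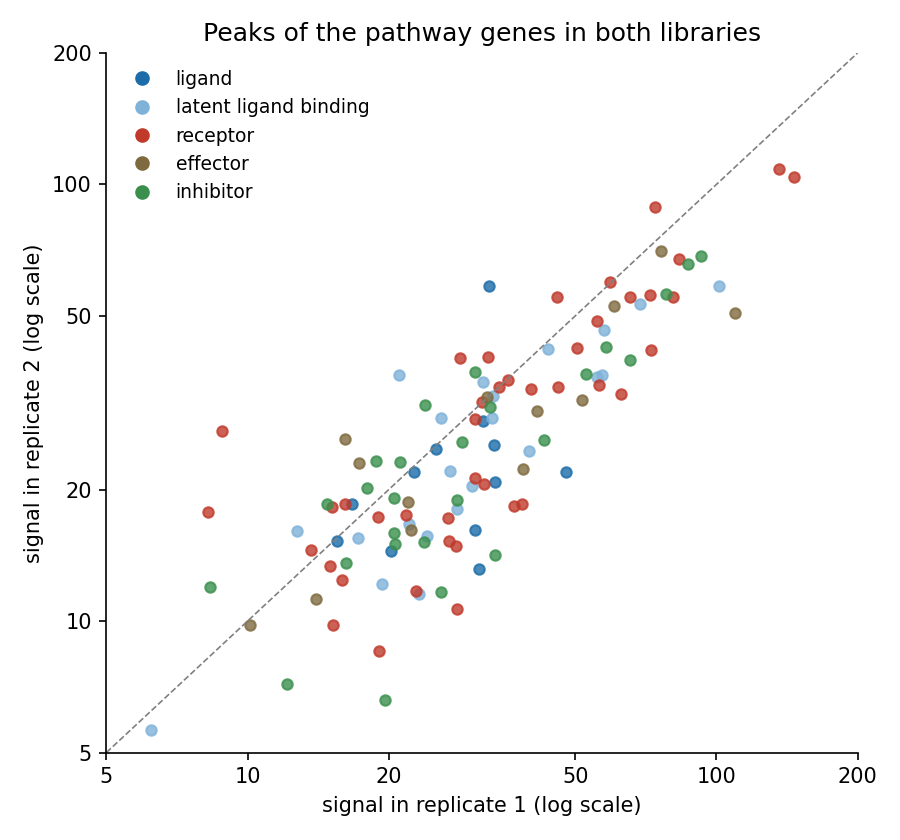
Signal of the 115 peaks found in both libraries, replicate 1 on the horizontal and replicate 2 on the vertical axis (both log scales), coloured by role, with a dashed line of equal values. The strongest peaks of Tgfbr3 and Tgfbr2 lie apart at the upper right in both libraries, and more points lie below the line than above it.

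Consensus sequences of 14 kinds were searched at the peak centres. On either strand of the central 100 bp, 62 of the 132 peaks (47.0%) held at least 1 of the 14 sequences, against 57.4% of all optimal peaks. The sequence TGACTCA of AP-1, a partner of SMAD proteins at many induced genes, was in 11 peaks (8.33%, against 5.94%). These were 4 at Tgfbr3, 2 at Ltbp1 and 1 each at Tgfb2, Tgfb3, Smad3, Smad7 and Skil. The SMAD box CAGACA was in 11 peaks too (8.33%, against 9.02%), of which 4 were at Ltbp1, 3 at Tgfbr2, 2 at Smad3 and 1 each at Smad7 and Skil. The SMAD palindrome GTCTAGAC was in none, against 0.114% of all peaks.

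Most of the other sequences had a lower share at the 10 genes than in the whole set. TEAD (GGAATG) was in 13 peaks (9.85%, against 11.7%), with 3 each at Tgfbr2, Smad3 and Smad7. ETS (CAGGAAG) was in 10 (7.58%, against 10.4%), the NFI sequence in 11 (8.33%, against 9.06%) and the E-box CAGCTG in 8 (6.06%, against 8.0%). The sequence AGATAA of GATA factors was in 9 peaks, 5 at Tgfbr3 and 4 at Ltbp1, and at no other of the 10 genes (6.82%, against 8.31% of all). FOX was in 4 peaks (3.03%, against 5.35%), KLF/SP in 5 (3.79%, against 4.66%) and NKX2 (TCAAGTG) in 2 (1.52%, against 3.13%). The glucocorticoid response element, with GNACA and TGTNC 3 bases apart, was in 3 peaks, at Tgfb2, Ltbp1 and Tgfbr3 (2.27%, against 2.17%). The CRE TGACGTCA was in none, against 0.403%. Each share of the 132 rests on few peaks, some of them overlapping neighbours at 1 gene, and none was tested.

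**Figure D5:**
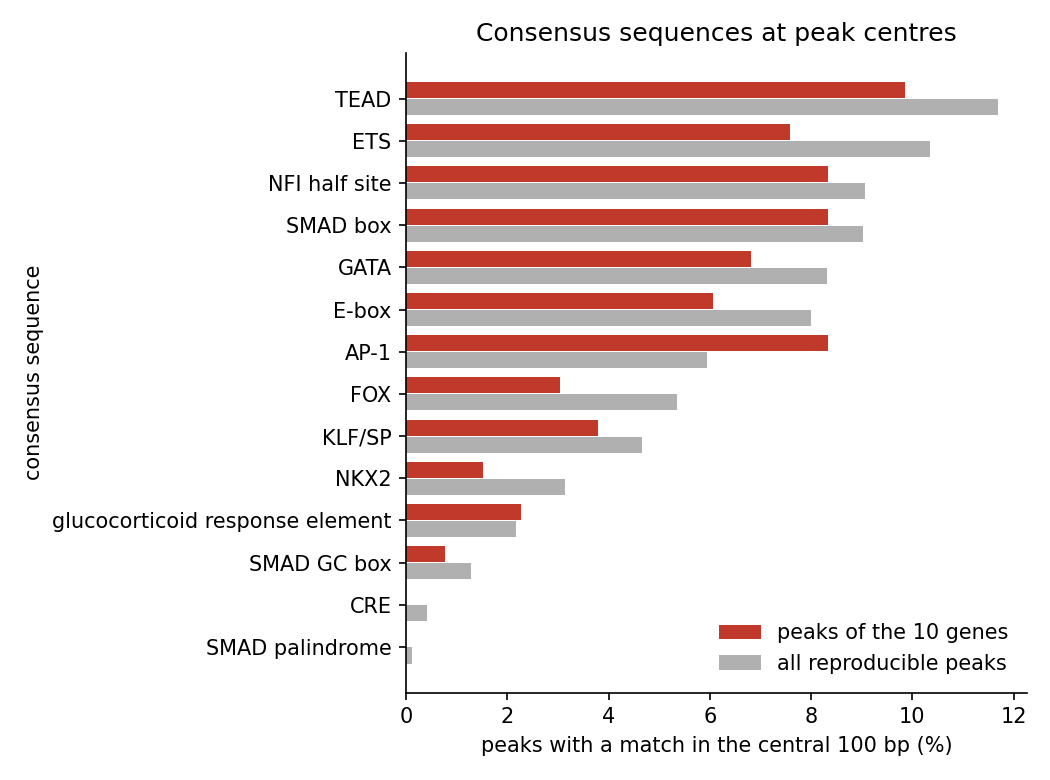
Percent of peaks with a match to each of 14 consensus sequences in the central 100 bp (horizontal axis), for the 132 peaks of the 10 genes and for all optimal peaks. AP-1 (8.33% against 5.94%) and the glucocorticoid response element (2.27% against 2.17%) are the sequences with the higher share at the 10 genes, and the other 12 have the lower.

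Other genes of the pathway had a lower median number of peaks than the 10 genes. Of 33, 32 had at least 1 peak, 12 had a promoter peak, and the median was 4 (range 0 to 22). These counts take no account of the sequence from which each gene could receive peaks. The 10 genes were also chosen with earlier results of these data known, and the gap was not tested. Among all protein-coding genes, 50.1% had at least 1 peak and 20.5% a promoter peak. Among the 10 genes of the latent complex and its activation, all had a peak, with a median of 5. Itgb6, of the epithelial integrin that activates latent TGF-beta, had 22 (23 and 26 in the libraries), and Lrrc32, whose product holds latent TGF-beta on the cell surface, had 17 (14 and 16). All 3 accessory receptor genes had a peak, among them the endothelial type I receptor gene Acvrl1 with 8 and the co-receptor gene Eng with 4. The effector genes Smad2 and Smad4 had 2 each, and Zfyve9, of the anchor protein SARA, had 0, beside the 16 of Smad3. All 10 further inhibitor genes had a peak, with a median of 3.5. Smad6, of the inhibitory SMAD best known from BMP signalling, had 20 (16 and 21), and Ski, the close relative of Skil, had 12 (12 and 11). All 7 target genes had a peak, with a median of 4, and Ccn2 (9) and Tgfbi (7) had the most.

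The tissue label was checked on genes that define lung and other organs. All 8 lung genes had a peak, including 18 at Sftpb, 7 at Nkx2-1 and 15 at the endothelial gene Kdr. Among all protein-coding genes the share with a peak was 50.1%. Of 7 genes of other organs 2 had one, Neurod1 with 4 and Ins2 with 2, and Alb, Ttr, Myh6, Gad1 and Umod had none. The files hold peak lists for whole lung, so the cells in which each of the 132 peaks was bound were not measured.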

How the data were processed

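EP300 ChIP-seq peak lists of 2 libraries of newborn whole lung were used. Per the deposited notes, reads were aligned to mm10 by the authors, who called peaks library by library and on the pool, with 300000 in each list. Reproducible sets followed from these, conservative (42473) and optimal (43988). Each list also derived from a file whose content is not named. Aligner, peak caller and versions: not given in the sources used here. Each peak's signal is the deposited value, of unstated scaling. Depth was unknown, so no precision from counting can be given, and 0 value columns were left unassigned to a library or set. Peak scores and q values were not used.

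Peaks were assigned with GENCODE vM21 starts of protein-coding transcripts in its basic set. A gene's assigned sequence was all positions that the rule gives it. A single library was represented by its strongest 43988 peaks, and a shared peak had a summit within 100 bp. Introns were numbered in the longest annotated basic transcript. Promoter sequences were RefSeq's. The 14 consensus sequences were searched on both strands, where matches may overlap.

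All 10 genes were named. Of the other pathway genes, the 2 with most peaks in each role were named, ties going to the strongest peak. Zfyve9 fell outside this rule and was named after its value was seen, as were Kdr, Nkx2-1 and Sftpb. Of each gene, the strongest and the strongest promoter peak were named, and further peaks were chosen after their values were seen. The genes and lists were chosen with earlier results of these data known. The code was tested on simulated data. Alternatives covered peak sets, libraries, distances, start sites and windows, and 2 were added after seeing the data. The tools were Python 3.11.15, samtools 1.23.1, pysam 0.24.0, numpy 2.4.6, pandas 2.3.3 and matplotlib 3.10.9.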

Additional observations from a re-analysis of the deposited data

How the results depend on the processing

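Of 99 recomputed values over the gene groups, 82 stayed within 1.5 times the reported value and 17 moved further. Of 130 for single genes, 101 stayed and 29 moved. The stronger 50% of the optimal set, which holds fewer peaks by construction, gave 67 peaks for the 10 genes, 6 for ligand genes, 27 for receptor genes and 12 for inhibitor genes, with a median of 6. A limit of 50 kb gave 9 for ligand genes. A limit of 10 kb gave 9 for ligand genes and 19 for inhibitor genes, with a median of 8.5. Gene bodies alone gave 7, 30 and 15 for ligand, receptor and inhibitor genes, a median of 7, and 5 lung genes with a peak. Start sites of every biotype gave 19 for inhibitor genes, with 12 for Smad7, 10 for Tgfbr2 and 0 for Tgfb3. Merging overlapping peaks gave 116 for the 10 genes, with a median of 11.5. By role this left 14 for ligand genes, 40 for receptor genes and 27 for inhibitor genes. A promoter window of 2 kb gave 13 promoter peaks, and a central window of 200 bp gave 96 peaks with a consensus sequence. A wider window takes in more by construction. The shares of all optimal peaks at these windows are not given here, so neither count can be compared with them. In the peak-set, distance, gene-body and start-site settings named here the 3 receptor genes had more peaks in total than the 2 inhibitor genes, and these more than the 3 ligand genes. In the optimal set the mean per gene had the other order for receptor (15.3) and inhibitor genes (16.5), as did the number per 100 kb (9.10 and 11.8).

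Leaving out replicate 2 or replicate 1 gave 131 to 132 peaks for the 10 genes, 13 to 15 for ligand genes, 48 to 51 for receptor genes, 29 to 30 for inhibitor genes, medians of 11 to 13.5, and 7 promoter peaks in either case. Single genes moved further: without replicate 2 Tgfb3 had 1 peak, and without replicate 1 Tgfb1 had 1 and Tgfbr1 had 3. The other values that left the reported count by over 1.5 times came from the settings above, from nearest start sites alone (Ltbp1 14, Tgfbr3 15), from gene 5′ ends (Tgfbr1 4) or, as an alternative added after seeing the data, from starts of incomplete models (Tgfb3 1). The added alternative of optimal peaks also strong in the pooled list moved no group total that far.

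No paired analysis was possible because there was 1 group only. Without read counts, how far depth limits these counts is not known. Assignment to the nearest start or gene body does not measure which gene a distant peak acts on. This touches above all the peaks of Tgfb3, the upstream peaks of Tgfbr2, and those of Tgfbr3, Ltbp1 and Smad7 in or near other genes. The spread between mice was not measured.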
